A study of Mus musculus with 18 samples.

Results

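The subunits of the receptors for GABA and glutamate were followed in the mouse arcuate nucleus, part of the hypothalamus, where feeding and fertility are regulated. They were chosen by gene name, as every symbol of a GABA-A, GABA-B, AMPA, kainate, NMDA, delta or metabotropic glutamate receptor subunit with a mean of at least 0.5 FPKM over all libraries. Of 23235 symbols listed, 47 matched by name and 41 had that mean. FPKM counts sequenced fragments relative to transcript length and to the depth of the library. The mice were ovariectomized C57/BL females of 3 genotypes. ERKO mice lack ERα, the estrogen receptor encoded by Esr1. KIKO denotes, in general usage, a null allele paired with a knock-in whose ERα has lost its binding to estrogen response elements. WT mice have intact ERα. Each genotype was given estradiol benzoate (E2) as 250 ng on day 5 after surgery followed by 1500 ng on day 6, or oil on the same days, and the microdissected nucleus was collected 24 h after the second injection and a 1 h fast. Every one of the 6 groups (ERKO E2, ERKO oil, KIKO E2, KIKO oil, WT E2 and WT oil) had 3 libraries of total RNA, 18 in all. How the alleles were built, and whether a library is a single animal, is not stated in the labels, so the p-values measure the spread between these libraries, which may be partly technical.

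GABA is the main inhibitory transmitter of the hypothalamus and glutamate the main excitatory one, and arcuate neurons that express ERα receive both. GABA-A receptors are chloride channels assembled from alpha, beta and mostly gamma subunits, and GABA-B receptors are heterodimers that act through G proteins. AMPA, kainate and NMDA receptors are cation channels built from subunits of their own class, while the metabotropic glutamate receptors signal through G proteins. Which subunits a neuron makes sets the kinetics, pharmacology and location of its receptors.

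Some facts of the libraries bear on these values. Esr1 itself was at 1.49 ± 1.13 FPKM in ERKO E2 and 2.09 ± 0.416 FPKM in ERKO oil libraries, at 3.27 ± 0.552 and 3.65 ± 0.637 FPKM in KIKO E2 and KIKO oil, and at 4.86 ± 1.26 and 8.05 ± 3.39 FPKM in WT E2 and WT oil (SD, n = 3 each). The library ERKO E2 3 stood apart from the rest. Its FPKM summed to 628541, against 418191 to 492135 in the other 17. It correlated with the others at 0.919 to 0.954 across genes, against 0.963 to 0.995 among the other 17. Vasopressin (Avp) was at 13110 FPKM in it, against 3345 FPKM in ERKO E2 1 and 3684 FPKM in ERKO E2 2. Long transcripts were low in it: the median deviation of the longest quartile of genes minus that of the shortest quartile was −1.01 on the log2 scale, against −0.32 to 0.32 elsewhere. The neuron markers summed to 976 to 1139 FPKM in ERKO E2, 998 to 1060 in ERKO oil, 980 to 1020 in KIKO E2, 1071 to 1093 in KIKO oil, 876 to 1018 in WT E2 and 1004 to 1051 FPKM in WT oil. The arcuate marker Pomc was at 675 to 1646 FPKM in ERKO E2, the highest being ERKO E2 3, and at 596 to 663 in ERKO oil. It was at 527 to 793 FPKM in KIKO E2, 601 to 770 in KIKO oil, 701 to 910 in WT E2 and 1162 to 1418 FPKM in WT oil. Cga, a pituitary marker, ran from 0 to 307 FPKM within WT oil. In bulk tissue, fewer cells of a type and less RNA per cell cannot be told apart.

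The 6 symbols under that mean were Gabra6, Gabrp, Gabrr1, Gabrr3, Grin3b and Grm6. Gabrr3 and Grm6 were listed at 0 in all 18 libraries, and Gabra6, known from cerebellar granule cells, in 17. Just outside it lay the NMDA subunit gene Grin3b at a mean of 0.428 FPKM, and just inside Gabrr2 at 0.506 FPKM and Gabrd at 0.666 FPKM. Gabrr2 was the one gene of the rho class past that mean (Gabrr1 averaged 0.0868 FPKM), and Gabrd, which encodes the delta subunit of extrasynaptic GABA-A receptors, was listed at 0 in WT oil 1. These lowest members rest on few fragments, with a median of 14 for Gabrr2 and 18 for Gabrd as implied by the deposited confidence bounds.

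Within the GABA-A class, the receptor profile of the nucleus was broad. Of the alpha subunits, which shape the benzodiazepine site and the kinetics, Gabra3 led at a mean of 32.2 FPKM over 18 libraries, with Gabra5 at 27.7 and Gabra2 at 24.5 FPKM. Gabra5 and Gabra2 differed by less than the SD of Gabra2 over the libraries, 6.12 FPKM, while Gabra4, an alpha subunit of extrasynaptic receptors, was far lower at 6.40 FPKM. Of the beta subunits, which line part of the GABA binding site, Gabrb2 stood at 13.4 and Gabrb1 at 8.25 FPKM, and the gamma subunit gene Gabrg1 at 32.5 FPKM. Gabre and Gabrq, the epsilon and theta subunit genes that are enriched in hypothalamus, were at 28.9 and 20.6 FPKM, so that each exceeded the mean of Gabrb2. These 2 genes lie with Gabra3 in 1 cluster on chromosome X.

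For GABA-B receptors, Gabbr1, which binds the agonist, was the highest of all 41 members at 161 FPKM, and Gabbr2, which couples to the G protein, was at 23.7 FPKM. Gabbr1 also had the lowest coefficient of variation over the 18 libraries, 5.24%. Its values ran from 136 to 176 FPKM, both ends being ERKO E2 libraries. Grin1 and Gria1 were also steady at 7.22% and 8.19%, and the widest were Gabrd at 72.0%, Gabrr2 at 52.1% and Gabrg3 at 48.1%. Some members were spread within a group: the WT oil values of Gabrq were 10.03, 19.4 and 30.7 FPKM.

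Among glutamate receptors, the AMPA class was led by Gria1 at 108 FPKM and Gria2 at 73.5 FPKM, the subunit that makes the channel impermeable to calcium, with Gria4 at 30.9 and Gria3 at 14.3 FPKM. The obligatory NMDA subunit gene Grin1 stood at 91.04 FPKM, whereas its partners were much lower. Grin2d and Grin2c were at 9.24 and 8.68 FPKM, against 1.63 FPKM for Grin2b and 0.956 FPKM for Grin2a, the forebrain subunits with the longest transcripts of the set (24060 and 14634 bases). Of the kainate class, Grik5, which needs a partner such as Grik1, Grik2 or Grik3 to form a channel, was at 75.3 FPKM and Grik3 at 27.3 FPKM. Grik2 followed at 13.6, Grik4 at 11 and Grik1 at 7.87 FPKM. The delta receptor gene Grid1 was at 21.4 FPKM. In the metabotropic class, the Gq-coupled group I gene Grm5 was at 12.1 FPKM, and the group III genes Grm7 and Grm4 at 10.4 and 3.45 FPKM. Group II, which like group III couples to Gi, was represented by Grm3 at 3.88 and Grm2 at 1.49 FPKM.

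**Figure D1:**
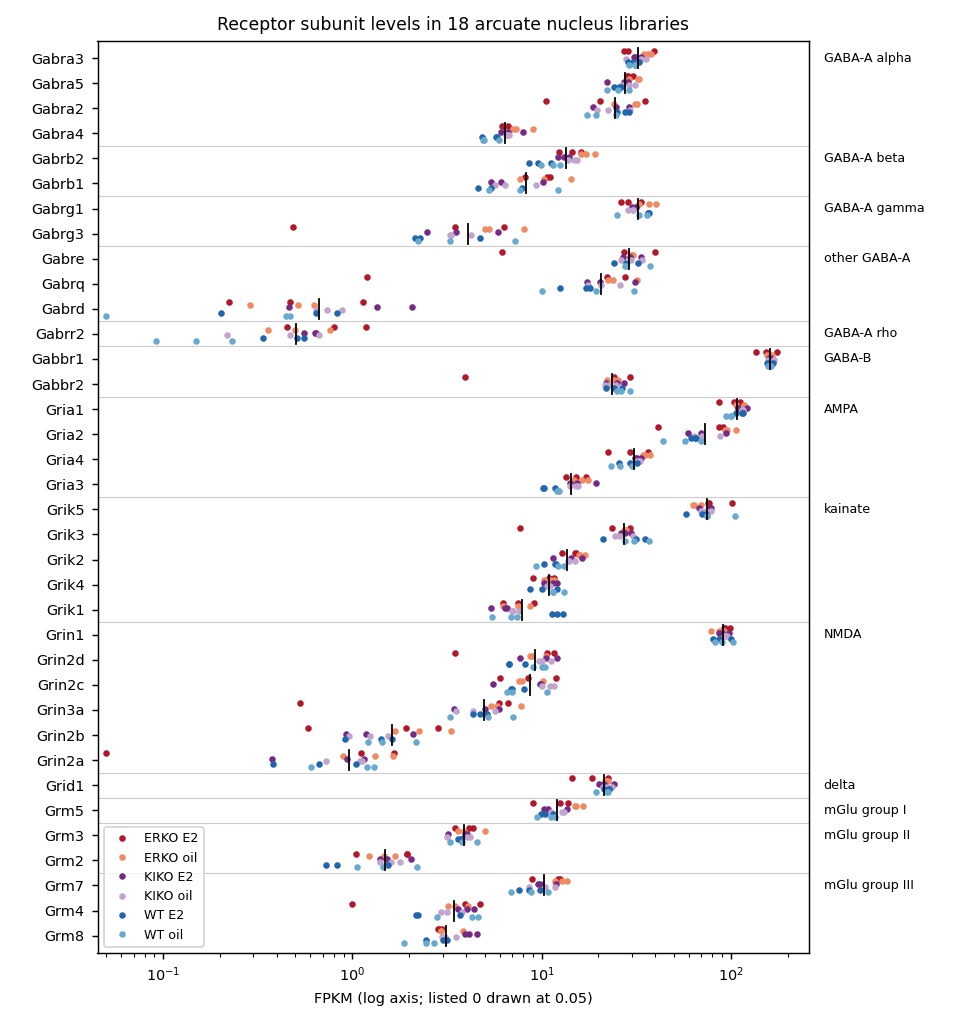
FPKM (log axis) of 36 receptor subunits in each of 18 libraries, coloured by group, with a bar at the mean over all libraries and families named at the right. Gabbr1 is highest at 161 FPKM and Gabrr2 lowest at 0.506 FPKM; single ERKO E2 points lie far left of the others for Gabrg3, Gabrq, Gabbr2, Grik3 and Grin3a.

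The effect of E2 was asked first within each genotype. In WT mice, 1 of the 41 subunits changed with E2, where 0.785% of all 14774 genes tested did. This was Grik1, on chromosome 16, which encodes the kainate subunit GluK1. Grik1 was at 11.4 FPKM in WT E2 1, 12.1 in WT E2 2 and 13.04 in WT E2 3, against 5.45, 6.94 and 7.43 FPKM in the WT oil libraries. The groups did not overlap, and every WT E2 library lay above all of the other 15, whose highest was 9.14 FPKM in ERKO E2 2. Of all genes tested, 1.75% had their 3 WT E2 libraries above the other 15, and Grik1 was the 1 member that did. Grik1 rose by 0.80 ± 0.14 on the log2(FPKM + 1) scale (SE of the fit, adjusted p = 0.00988, limma), with 245 to 734 fragments behind it in each library. The adjusted p ran from 0.00403 to 0.0591 over 17 alternatives, and the call was lost without WT oil 1 or without WT E2 3. In the same comparison the 4 suprachiasmatic markers had a median change of 0.745. It was −0.383 for the 5 ventromedial, −0.359 for the 4 magnocellular and −1.23 for the 4 pituitary markers. None of the markers in these 4 lists passed. Of 10 arcuate markers 3 passed as lower, and the median change of that list was −0.433. The list summed to 3072 to 3633 FPKM in WT E2, against 4609 to 5428 FPKM in WT oil. Also lower were 1 of the 8 neuron markers tested (Nefm) and 1 of 6 oligodendrocyte precursor markers (Olig2). The part of all these markers in the change of Grik1 was not tested.

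In neither mutant genotype did Grik1 pass the threshold. It was at 6.55, 6.40 and 5.42 FPKM in KIKO E2, against 7.03, 7.64 and 6.95 FPKM in KIKO oil (log2 change −0.21 ± 0.14, adjusted p = 1.00). In ERKO mice it was at 6.25, 9.14 and 7.48 FPKM after E2, against 7.51, 8.67 and 6.28 FPKM in oil, with overlapping groups. The 3 KIKO E2 libraries all lay below the 3 KIKO oil libraries, opposite to WT. The difference between genotypes was then tested directly. The E2 response of KIKO minus that of WT was −1.01 ± 0.20 for Grik1 (adjusted p = 0.0755), and that of ERKO minus WT was −0.78 ± 0.20 (adjusted p = 0.138), so neither passed the threshold of 0.05. None of the 41 members did, where 0.135% and 0.278% of all genes did. The KIKO difference passed in 3 of 23 alternatives, and the limma adjusted p ran from 0.0285 to 0.244 over them. These 3 were the fit without ERKO E2 3 (adjusted p = 0.0373), the correction for transcript length and GC content (0.0286) and the groups compared alone. In the other 20 it did not pass.

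Compared after E2, Grik1 was lower in both mutants. It averaged 6.12 ± 0.612 FPKM in KIKO E2 and 7.62 ± 1.45 FPKM in ERKO E2, against 12.2 ± 0.831 FPKM in WT E2 (SD, n = 3 each). The log2 change was −0.89 ± 0.14 for KIKO E2 against WT E2 (adjusted p = 0.00436) and −0.62 ± 0.14 for ERKO E2 against WT E2 (adjusted p = 0.0409). The KIKO call was kept in all 17 alternatives, with an adjusted p of 0.001 to 0.0297. The ERKO call was lost in 6 of 16, among them the fits without each WT E2 library or ERKO E2 1 and quantile normalization. Within the kainate class, Grik1 made up 4.59% ± 0.665 of the summed FPKM in KIKO E2 and 5.56% ± 1.13 in ERKO E2, against 9.35% ± 1.02 in WT E2, and its share in the 3 oil groups lay between 4.56% and 5.84%. These E2 groups are the same ones as in the response above, so this is no separate evidence of it.

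**Figure D2:**
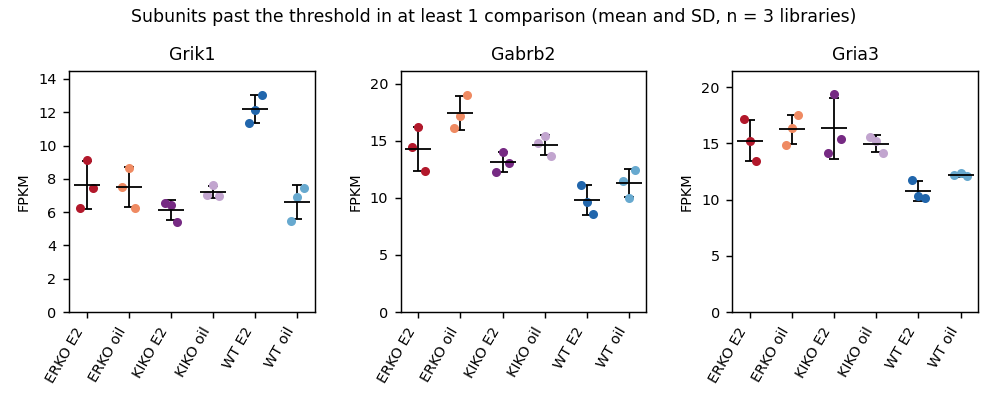
FPKM of 3 subunits past the threshold in at least 1 comparison, by group, with 1 point per library and bars at the mean ± SD (n = 3). For Grik1 the WT E2 libraries lie between 11.4 and 13.04 FPKM and all others at or below 9.14; for Gabrb2 and Gria3 the WT libraries lie below those of both mutants within each treatment.

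Other kainate and AMPA subunits showed smaller differences with E2, and none passed. In WT mice Grik5 was at 70.9, 74.1 and 58.1 FPKM after E2, against 106, 75.2 and 74.6 FPKM in oil (log2 change −0.32 ± 0.15, adjusted p = 0.476). The groups did not overlap, but the oil group was spread by a single library. In ERKO mice Grik5 was at 76.4, 75.6 and 102 FPKM after E2, against 62.9, 69.8 and 63.8 FPKM in oil (0.35 ± 0.15, adjusted p = 0.473). Here the E2 libraries were higher, the highest being ERKO E2 3. The E2 response of Grik5 in ERKO minus that in WT was 0.67 ± 0.21 (adjusted p = 0.235). For KIKO minus WT the smallest p after Grik1 belonged to Gria3 and Grik4, at 0.28 ± 0.16 and 0.27 ± 0.16 (adjusted p = 0.999 for both). Gria1 and Gria2 averaged 112 ± 5.59 and 63.8 ± 1.82 FPKM in WT E2, against 98.6 ± 3.41 and 56.9 ± 12.8 FPKM in WT oil.

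Among GABA receptor genes, no member passed in any comparison of E2 with oil. In WT mice, those with the smallest p and groups that did not overlap were Gabrg1 and Gabrr2. Gabrg1 was at 36.7, 37.1 and 36.7 FPKM after E2, against 24.97, 32.7 and 36.2 FPKM in oil (log2 change 0.25 ± 0.12, adjusted p = 0.503). The 3 WT E2 libraries were nearly equal, and the oil libraries were spread. In ERKO E2 Gabrg1 was at 28.7, 33.5 and 26.4 FPKM, below all WT E2 libraries (−0.32 ± 0.12, adjusted p = 0.291), and its E2 response in ERKO minus that in WT was −0.55 ± 0.17 (adjusted p = 0.222). Gabrr2, a retinal-type subunit, was at 0.509, 0.338 and 0.556 FPKM in WT E2, against 0.0918, 0.150 and 0.232 FPKM in WT oil (0.34 ± 0.16, adjusted p = 0.486). At these levels each value rests on a handful of fragments. In KIKO and ERKO mice 0 of 41 members passed, where 0.00677% and 0.0% of all genes did. At an unadjusted p under 0.05, 1 member differed in KIKO and 5 in ERKO mice, where 0.948% and 7.23% of all genes did. The 1 in KIKO was Grm8, a presynaptic metabotropic receptor gene, at 4.12, 3.96 and 4.54 FPKM after E2, against 2.99, 3.53 and 3.08 FPKM in oil (0.31 ± 0.13, adjusted p = 1.00). The Grm8 groups did not overlap. Grm8 was also higher than in WT mice without passing, at 3.02, 3.15 and 2.46 FPKM in WT E2 (KIKO E2 against WT E2 0.43 ± 0.13, adjusted p = 0.185) and 1.88, 2.45 and 2.69 FPKM in WT oil (KIKO oil against WT oil 0.34 ± 0.13, adjusted p = 0.368). Grin2c in KIKO mice had a log2 change with E2 of −0.37 ± 0.23. In ERKO mice the metabotropic gene Grm5 was at 12.5, 13.8 and 8.99 FPKM after E2, against 15.2, 15.1 and 16.6 FPKM in oil (−0.40 ± 0.14, adjusted p = 0.473). Gabra4 had a log2 change of −0.24 ± 0.12 in the same comparison, also without overlap.

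Over all 41 members, the median log2 change with E2 was near that of all genes in WT and KIKO mice. It was −0.04 in WT and 0.01 in KIKO, and 0.01 in both for all genes tested. The sign of these small medians turned with single libraries, to 0.02 without WT oil 3 in WT and to −0.05 without KIKO E2 2 in KIKO mice. In ERKO mice it was −0.21, against −0.03 for all genes, with 8 of 41 members above 0 (45.9% of all genes). This shift rested on 1 library: without ERKO E2 3 the median was −0.06. Groups that did not overlap numbered 5 higher and 3 lower in WT, where 9.37% and 6.45% of all genes were, and 1 higher and 4 lower in ERKO mice, where 5.39% and 6.92% were.

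The second question was how the genotypes differed from WT under the same treatment. Without E2, 2 of the 41 members passed in ERKO against WT mice, where 1.43% of all genes did. Both were higher, where 0.751% of all genes were, and 0 were lower, where 0.684% were. Among them was the GABA-A beta subunit gene Gabrb2, on chromosome 11. It was at 16.1, 17.2 and 19.1 FPKM in ERKO oil, against 11.5, 9.98 and 12.5 FPKM in WT oil. The groups did not overlap. Gabrb2 was higher by 0.58 ± 0.12 (adjusted p = 0.0326). Its log2 change was above 0 in all 17 alternatives, but the call was lost in 7, including the fits without WT oil 1, WT oil 2 or any 1 of the ERKO oil libraries, and the replicate block. Without these single libraries the number of all genes called also fell, to between 1 and 42 genes of 212. After correction for transcript length and GC content, Gabrb2 was higher by 0.42 (adjusted p = 0.0904).

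After E2 Gabrb2 was again higher in ERKO mice. It was at 14.4, 16.2 and 12.4 FPKM in ERKO E2, against 11.2, 9.63 and 8.57 FPKM in WT E2 (log2 change 0.51 ± 0.12, adjusted p = 0.0479). Again the groups did not overlap. The E2 groups are different libraries from the oil groups, and here the length and GC correction kept the call of Gabrb2, at 0.54 (adjusted p = 0.0156). Over 16 alternatives the call was lost in 8, among them the groups compared alone, the replicate block and the fits without WT E2 2, WT E2 3, ERKO E2 1 or ERKO E2 2. In all, 3 members passed in this comparison, Gabrb2 and Grik1 among them, where 1.3% of all genes did. Of the 3, 2 were higher and 1 lower, where 0.271% and 1.03% of all genes were.

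The KIKO means of Gabrb2 lay between those of ERKO and WT mice, though KIKO and ERKO were not tested against each other. Gabrb2 was at 12.3, 14.01 and 13.1 FPKM in KIKO E2 and at 14.9, 15.5 and 13.7 FPKM in KIKO oil, which gave log2 changes of 0.39 ± 0.12 (adjusted p = 0.189) and 0.35 ± 0.12 (adjusted p = 0.289) against WT under the same treatment. In neither did the groups overlap, yet neither passed. Without ERKO E2 3 in the fit, whose spread enters the shared variance, Gabrb2 passed in KIKO E2 against WT E2 (adjusted p = 0.0422), where 4.03% of all genes then did. No member passed in KIKO oil against WT oil, where 0.0135% of all genes did, and 7 members had an unadjusted p under 0.05, where 10.1% of all genes did.

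The series title asks which signals of ERα need estrogen response elements, so the promoters were searched for them and that of Gabrb2, a gene that passed in both ERKO comparisons, is shown. Windows of 250 bases before to 50 after each RefSeq start (GRCm38.p6) were searched on both strands for the full palindromic element, GGTCA and TGACC spaced by 3 bases, for its unit GGTCA alone, for the AP-1 motif TGANTCA and for the cyclic AMP motif TGACGTCA. Of the 41 members, 26 had a promoter in the table, with 33 windows. Grik1 and Gria3 had none in it, so their promoters were not searched. The palindrome was in 0 of the 33, and in 0.07% of all 32851 windows. GGTCA was in 8 of the 33 (24.2%), against 40.5% of all windows. TGANTCA was in 1, that of Grm8 (all windows 7.81%), and TGACGTCA in 0 (1.79%). Gabrb2 had 3 windows on the plus strand of chromosome 11. The first, chr11:42420190-42420489, held GGTCA once on each strand, which the capitals mark, and the other 2 held none.
Gabrb2 promoter: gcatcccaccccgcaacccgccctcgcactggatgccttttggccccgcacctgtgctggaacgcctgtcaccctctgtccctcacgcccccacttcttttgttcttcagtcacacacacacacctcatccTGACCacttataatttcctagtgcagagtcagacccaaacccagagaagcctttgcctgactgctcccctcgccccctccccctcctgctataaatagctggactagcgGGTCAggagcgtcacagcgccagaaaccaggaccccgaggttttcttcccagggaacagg
A match of so few letters is a description of the window, not a binding site.

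The AMPA subunit gene Gria3, on chromosome X, was likewise lowest in WT libraries. It was at 14.2, 19.4 and 15.4 FPKM in KIKO E2, against 11.8, 10.3 and 10.2 FPKM in WT E2. Each KIKO E2 library lay above each WT E2 library. The log2 change was 0.55 ± 0.11 (adjusted p = 0.0300), and the call was lost in 5 of 17 alternatives, the groups compared alone and the fits without WT E2 2, WT E2 3, KIKO E2 2 or KIKO E2 3. With Grik1, 2 of 41 members passed in KIKO E2 against WT E2, where 0.948% of all genes did. They were 1 higher and 1 lower, where 0.203% and 0.745% of all genes were. In ERKO E2 Gria3 was at 17.1, 15.2 and 13.5 FPKM, again above all WT E2 libraries (0.47 ± 0.11, adjusted p = 0.0612). In oil it was at 14.9, 16.4 and 17.5 FPKM in ERKO, at 15.6, 15.3 and 14.2 FPKM in KIKO and at 12.2, 12.4 and 12.1 FPKM in WT libraries, with log2 changes of 0.38 ± 0.11 (adjusted p = 0.0856) for ERKO and 0.28 ± 0.11 (adjusted p = 0.417) for KIKO. Its share of the summed AMPA FPKM was 7.14% ± 1.082 in ERKO E2 and 6.88% ± 0.629 in KIKO E2, against 4.98% ± 0.405 in WT E2.

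Of the 41 members, 4 had every KIKO and every ERKO library above every WT library of the same treatment, where 0.657% of all genes did, and Gabrb2, Gria3 and Gabra4 were among them. All comparisons in this count use the same WT libraries. The count was not repeated after the correction for transcript length and GC content, so the part of length in it was not tested. Gabra4 was at 6.20, 6.65 and 6.34 FPKM in ERKO E2 and at 7.08, 7.32 and 8.996 FPKM in ERKO oil, and at 6.66, 7.95 and 6.08 FPKM in KIKO E2 and 6.72, 6.58 and 6.5 FPKM in KIKO oil. The WT values were 4.83, 5.73 and 5.83 FPKM after E2 and 4.97, 4.88 and 5.97 FPKM in oil. The log2 change was 0.49 ± 0.12 for ERKO oil against WT oil (adjusted p = 0.0513), and smaller in the other contrasts. Gabra4 overlaps Gabrb1 on the opposite strand in the GENCODE M21 annotation, and the sources used here do not say whether strand was used, so reads of the 2 genes may be mixed. An exon of 11 members is overlapped in this way, Grik1, Gabrb2 and Gria3 not among them. A further 6 members are overlapped on the same strand only, and Gria3 is 1 of these (by Gm22413).

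The metabotropic gene Grm5 had its highest group mean in ERKO oil. It was at 15.2, 15.1 and 16.6 FPKM in ERKO oil, against 9.43, 11.2 and 11.8 FPKM in WT oil (log2 change 0.50 ± 0.14, adjusted p = 0.0772). Every ERKO oil library lay above every WT oil library. The kainate gene Grik2 was at 16.0, 15.9 and 16.9 FPKM in ERKO oil, against 12.2, 9.30 and 13.1 FPKM in WT oil (0.47 ± 0.13, adjusted p = 0.0705). It turned to −0.04 after the length and GC correction. Gria2 averaged 98.8 ± 7.01 FPKM in ERKO oil, against 56.9 ± 12.8 FPKM in WT oil, and its transcript of 10371 bases is among the longest of the set.

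**Figure D3:**
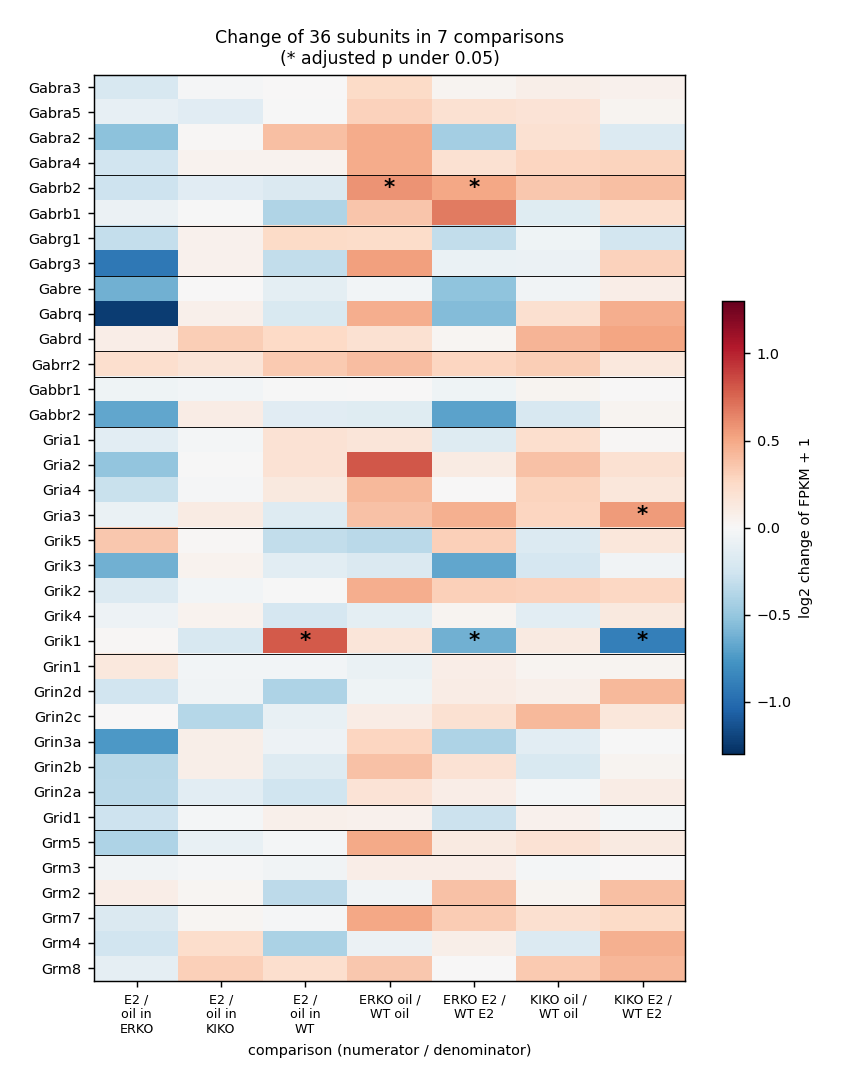
Log2 change of FPKM + 1 for 36 subunits in 7 comparisons, with the numerator group named first; red is higher and blue lower in that group, and a star marks an adjusted p under 0.05. Most cells of ERKO oil / WT oil are red (27 of 36 above 0), and the 6 stars fall on Gabrb2, Gria3 and Grik1.

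Most members had log2 changes above 0 in ERKO oil against WT oil. Their median log2 change was 0.25, against 0.02 for all genes, and 31 of 41 lay above 0, as 52.3% of all genes did. The median was 0.13 without WT oil 1. Groups did not overlap for 17 higher and 1 lower member, where 20.8% and 18.4% of all genes did not. For the 17 GABA receptor genes the median was 0.36 and for the 24 glutamate receptor genes 0.16. Transcript length moved with this comparison. The longest quartile of all genes had a median change of 0.18 and the shortest quartile −0.17, and 24 of the 41 members fall in the longest quartile, with a median length of 5206 bases against 3353 for all genes. After the correction for length and GC content the median of the members was 0.07. Markers of other cells moved as well. In ERKO oil against WT oil, 3 of 6 oligodendrocyte precursor markers were lower (Gpr17, Olig1 and Olig2), and the list summed to 108 to 109 FPKM in ERKO oil, against 147 to 174 FPKM in WT oil. Of 10 arcuate markers 2 were lower (Pdyn and Th), with sums of 2923 to 3011 FPKM in ERKO oil and 4609 to 5428 FPKM in WT oil. Of 7 astrocyte markers 1 was lower (Gfap), with sums of 700 to 740 FPKM in ERKO oil and 852 to 1007 FPKM in WT oil. Of the 8 neuron markers tested 1 was lower (Nefm), and their median change was 0.00. The part of these cells in the members' shift was not tested.

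**Figure D4:**
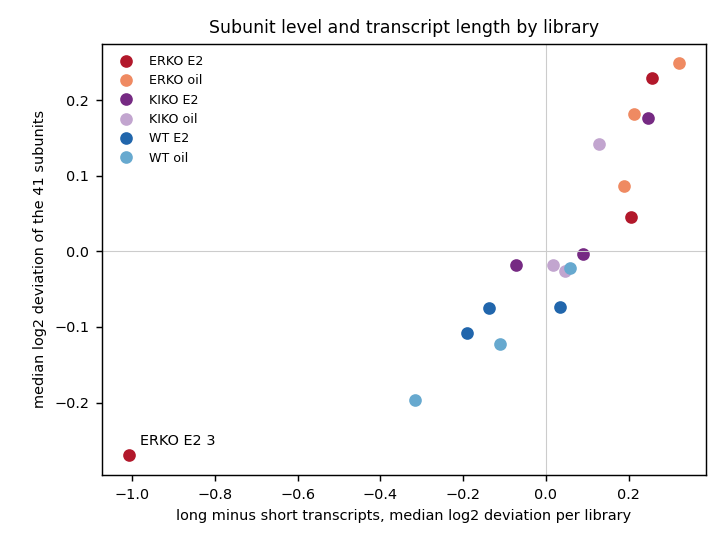
Each library's median log2 deviation of the 41 subunits (vertical) against its long-minus-short difference, the median log2 deviation of the longest quartile of genes minus that of the shortest (horizontal). ERKO E2 3 lies alone at −1.01 and −0.27; the ERKO oil libraries lie at 0.19 to 0.32, and WT libraries between −0.32 and 0.06.

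For the other genotype contrasts the shift was smaller. The median of the members was 0.14 in KIKO E2 against WT E2 (all genes 0.01), with 35 of 41 above 0 where 52.5% of all genes were, and 0.06 after the length and GC correction. It was 0.08 in KIKO oil against WT oil (all genes 0.01) and 0.08 in ERKO E2 against WT E2 (all genes −0.01). Single libraries moved these medians. In KIKO E2 against WT E2 it was 0.02 without KIKO E2 2, with 27 of 41 above 0. In KIKO oil against WT oil it was 0.18 without WT oil 3 and 0.04 without KIKO oil 2. In ERKO E2 against WT E2 it was 0.23 without ERKO E2 3, 0.06 without WT E2 1 and turned to −0.04 without ERKO E2 2, with 18 of 41 above 0. Leaving out ERKO E2 3 also raised the number of calls. In ERKO oil against WT oil 12 members then passed, where 22.5% of all genes did. Of these, 11 were higher, where 11.9% of all genes were, among them Gabra4, Gabrb2, Gria2, Gria3, Gria4, Grik2, Grm5 and Grm7. Grik5 was lower, by −0.36 ± 0.12. In ERKO E2 against WT E2 6 passed, where 8.7% of all genes did, Gabrb2, Gria3, Grik1 and Grin2d among them.

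Of the 7 families plotted by their summed FPKM, the AMPA and group III metabotropic sums were higher in every ERKO oil library than in every WT oil library. The AMPA class summed to 261 ± 15.8 FPKM in ERKO oil and 237 ± 12.8 FPKM in KIKO oil, against 194 ± 16.7 FPKM in WT oil. The KIKO oil libraries also lay above WT oil here, and they did not overlap with it. The group III sum was 19.6 ± 1.46 FPKM in ERKO oil and 16.8 ± 1.58 FPKM in KIKO oil, against 15.1 ± 1.53 FPKM in WT oil. The GABA-B and NMDA sums overlapped between these groups: for GABA-B the sums were 185 ± 6.55 FPKM in ERKO oil and 188 ± 0.577 FPKM in WT oil. The kainate class ran the other way, at 128 ± 5.35 FPKM in ERKO oil and 147 ± 13.1 FPKM in WT oil, with Grik5 at 65.5 ± 3.74 FPKM in ERKO oil and 85.1 ± 17.7 FPKM in WT oil. Within the AMPA class Gria2 took 37.9% ± 0.507 of the sum in ERKO oil, against 29.1% ± 4.204 in WT oil, and Gria1 took 42.2% ± 0.216, against 51.0% ± 4.34. Sums are led by their highest members and were not tested.

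**Figure D5:**
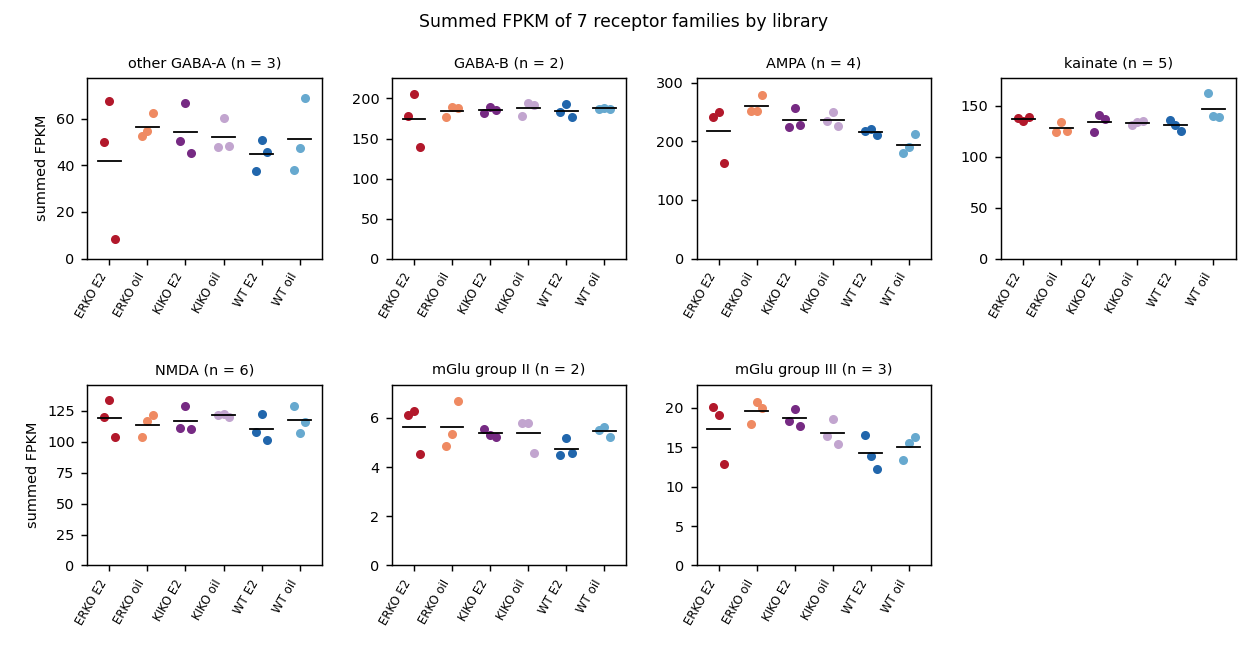
Summed FPKM of 7 receptor families in every library by group, with a bar at the group mean (axes start at 0; n in the titles is the number of subunits). ERKO oil lies above WT oil for the AMPA and group III sums (means 261 and 19.6 FPKM against 194 and 15.1 FPKM), and 1 ERKO E2 library falls to 8.48 FPKM in the other GABA-A sum.

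ERKO E2 3 departed from its group unevenly across the subunits. It was the lowest of all 18 libraries for 20 of the 41 members and the highest for 1, and 13 members were under 0.5 of the mean of the other ERKO E2 libraries. The theta subunit gene Gabrq was at 1.19 FPKM in it, against 22.2 and 27.6 FPKM in ERKO E2 1 and 2. Gabbr2 was at 3.94 FPKM, against 24.2 and 29.2 FPKM, while its partner Gabbr1 was at 136 FPKM, against 153 and 176 FPKM. The NMDA gene Grin3a was at 0.529 FPKM, against a mean of 6.30 FPKM in the other 2, and Grin2a was listed at 0. Grik5 was not low, at 102 FPKM, against 76.4 and 75.6 FPKM. Gabrb1, with a transcript of 13737 bases, was at 10.7 FPKM in this library, against 8.16 and 11.1 FPKM in the other 2. The part of transcript length in these departures was not tested gene by gene.

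Other genes of these synapses were counted from fixed lists. Of 20 auxiliary subunits of AMPA and kainate receptors, 19 were tested. Olfm2, which encodes a secreted protein found with AMPA receptors, was lower in both mutants than in WT mice after E2. It was at 54.5, 45.7 and 55.8 FPKM in KIKO E2 and at 47.3, 55.6 and 32.7 FPKM in ERKO E2, against 100, 112 and 81.8 FPKM in WT E2. Every mutant library lay below every WT E2 library. The log2 changes were −0.90 ± 0.15 (adjusted p = 0.00792) and −1.12 ± 0.15 (adjusted p = 0.00102). In oil it was also below WT in every library, at 45.7, 49.8 and 45.95 FPKM in ERKO oil and 52.2, 50.4 and 55.95 FPKM in KIKO oil, against 76.3, 70.7 and 73.1 FPKM in WT oil, without passing the threshold. Shisa6 encodes an AMPA receptor partner that slows desensitization. It was at 2.14, 2.90 and 0.880 FPKM in ERKO E2, against 3.87, 4.06 and 4.60 FPKM in WT E2 (−0.86 ± 0.20, adjusted p = 0.0479). The lowest value was that of ERKO E2 3. No other gene of that list passed in any comparison. Thus 1 of 19 was lower in KIKO E2 and 2 of 19 in ERKO E2 against WT E2, where 0.745% and 1.03% of all genes were. The calls of Olfm2 and Shisa6 were not followed over the alternatives. The scaffolds of glutamate receptors (21 tested of 22) and of GABA-A and glycine receptors (18 of 19), the GABA-B partners (8 of 8), the glycine receptors (4 of 5), the genes of GABA supply and uptake (8 of 9) and of glutamate supply and uptake (12 of 12) and the chloride transporters (2 of 2) gave 0 calls in the 9 comparisons. Of all genes tested, 0.0% to 1.43% passed in these comparisons. The synthetic enzyme gene Gad2 was at 109, 107 and 107 FPKM in WT E2, against 64.2, 76.4 and 81.2 FPKM in WT oil. The Gad2 groups did not overlap, and Gad2 did not pass the threshold.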

How the data were processed

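RNA-seq of the arcuate nucleus was deposited as 1 gene table per library. Per the labels, total RNA was extracted from microdissected tissue. The authors deposited FPKM with confidence bounds, and the submitters' processing notes name TopHat2 2.0, Cuffdiff and mm10. The annotation and the depth are not given in the sources used here, and the listed positions did not lie on mm10, so chromosomes alone are given. Fragment numbers were read from the confidence bounds, and were whole within 0.02 for 258 of 275 values up to 500 fragments.

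Entries sharing a symbol were summed. Small RNA genes and genes averaging under 0.5 FPKM were left out, and 14774 remained. They were fitted on log2(FPKM + 1), which understates changes of low genes, with limma (version 3.58.1, R version 4.3.3). The fit took the 6 group means over 18 libraries, leaving 12 degrees of freedom, with trended, robust variances, two-sided tests and Benjamini-Hochberg adjustment over all genes tested at 0.05. There were 9 comparisons. On simulated data for E2 against oil in WT, with 14774 genes, 80% of genes changed by 1 (log2) were recovered. For genes changed by 2 it was 99%, and 10 unchanged genes were called. These rates describe the simulated data only. In the measured data the calls for E2 in WT ran from 71 to 397 genes without 1 library. Whether the rates hold for these libraries, with their shifts by transcript length, or for members of low FPKM was not tested.

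The members, lists and tests were chosen with earlier results of these data known. Named were members past the threshold, up to 3 others per comparison with the smallest p and no overlap of groups, the 2 highest of each family and those beside the threshold of 0.5 FPKM. A few members are not reported here, though counts over the 41 include them. Further members, named to complete a family or the account of ERKO E2 3, and Gad2 were chosen after their values were seen. Sequences are from RefSeq (GRCm38.p6). Lengths and overlaps are from GENCODE M21. Other software was Python 3.11.15 with matplotlib 3.10.9, pandas 2.3.3 and numpy 2.4.6.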

Additional observations from a re-analysis of the deposited data

How the results depend on the processing

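Alternatives to the pseudocount, filter, scaling, variance model, libraries fitted and replicate block were tried. Each library was left out in turn for the comparisons that use its group, and ERKO E2 3 for all comparisons. The ranges without 1 library cover these fits only. A length and GC correction was added after seeing the data. Over 29 named results and 518 alternative values, 471 kept direction and side of the threshold, 28 lost and 18 gained the call, and 1 reversed. The reversed value was that of Grik2 in ERKO oil against WT oil, at −0.038 after the length and GC correction. Of the 29, 6 had passed, and all 28 losses fell on these. They ran from 0 of 17 alternatives for Grik1 in KIKO E2 against WT E2 to 8 of 16 for Gabrb2 in ERKO E2 against WT E2. The number of members past the threshold in ERKO oil against WT oil (2) became 4 with quantile normalization, 8 with the groups compared alone, 10 with library weights, 0 with the replicate block and 0 with the length and GC correction, and ran from 0 to 12 without 1 library. In KIKO E2 against WT E2 (2) it was 1 with the groups alone and 1 to 4 without 1 library. In ERKO E2 against WT E2 (3) it was 0 with the groups alone, 5 with library weights and 1 with the replicate block, and 0 to 6 without 1 library. For the E2 response of KIKO minus WT (0) it was 1 with the groups alone and 1 with the length and GC correction, and 0 to 1 without 1 library. For the ERKO minus WT response (0) and for E2 in WT (1) it was 0 to 1 without 1 library. The causes were not tested. The numbers of all genes called moved further: without 1 library from 71 to 397 for E2 in WT (116), from 0 to 268 for KIKO oil (2), from 1 to 3319 for ERKO oil (212), from 55 to 596 for KIKO E2 (140) and from 95 to 1286 for ERKO E2 (192), each against WT. With library weights they were 209, 351, 2932, 1030 and 1302. Replicate numbers were not treated as pairs. For same-numbered libraries of the 2 groups compared, the deviations from the group means were correlated across genes. This correlation ranged from −0.31 to 0.38 and exceeded 0.1 for all 3 numbers in 0 comparisons. For E2 against oil in WT it was 0.29 for number 1, −0.181 for number 2 and 0.383 for number 3. Whether some numbers shared handling was not tested. With the block the calls of Gabrb2 in ERKO oil and in ERKO E2 against WT were lost. Members near 0.5 FPKM rest on few fragments, so small changes were not detectable in them.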
